A study of Mus musculus with 12 samples.

Results

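The enzymes and the transporter that handle arginine, nitric oxide and itaconate in activated macrophages were examined as a group of 8 genes, Nos2, Acod1, Arg1, Arg2, Ass1, Asl, Slc7a2 and Gch1, out of 22180 genes measured. The genes were chosen by symbol, with earlier results of these data known. Each had 1 feature on the array, so no choice between features was needed. BV2 cells, an immortalised mouse microglial line labelled wild type, were measured in 4 groups of 3 arrays. All cells received 1.5% DMSO and were followed for 3 h. The DMSO group had vehicle alone, the LPS group had 2 h of vehicle and then 1 h of LPS (lipopolysaccharide, a bacterial cell wall component that signals through Toll-like receptor 4), the Telmisartan group had the drug for 3 h, and the Telmisartan+LPS group had 2 h of drug and then 1 h of LPS. Telmisartan blocks the angiotensin II type 1 receptor and is a partial agonist of PPAR gamma. The treatment notes also name LPS among the drugs given alone for 3 h, but both the LPS wording and the sample titles give 1 h. The doses of LPS and telmisartan are not given in the sources used here.

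In mouse macrophages, LPS and interferon gamma switch on Nos2, the inducible nitric oxide synthase, which turns arginine into nitric oxide and citrulline. Slc7a2 brings arginine into the cell, Gch1 starts the synthesis of tetrahydrobiopterin, the cofactor that nitric oxide synthases need, and Ass1 and Asl rebuild arginine from citrulline. Arg1 and Arg2 compete for the same arginine and turn it into ornithine and urea. Acod1 (formerly Irg1) makes itaconate from cis-aconitate, an intermediate of the citric acid cycle, and is among the genes that LPS induces in these cells.

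The 250 bases before the annotated start are shown for the gene that rose with LPS, Acod1, and for the gene of the cofactor enzyme, Gch1, which has the kB consensus in this window. Capitals mark matches to the kB consensus (GGGRNWYYCC, with R for A or G, W for A or T, Y for C or T and N for any base) and to the TATA box (TATAAA). Sequences are RefSeq promoters of build GRCm38.p6, for Acod1 chr14:103046762-103047011 on the plus strand and for Gch1 chr14:47189414-47189663 on the minus strand, both written 5′ to 3′ in the direction of the gene.
Acod1: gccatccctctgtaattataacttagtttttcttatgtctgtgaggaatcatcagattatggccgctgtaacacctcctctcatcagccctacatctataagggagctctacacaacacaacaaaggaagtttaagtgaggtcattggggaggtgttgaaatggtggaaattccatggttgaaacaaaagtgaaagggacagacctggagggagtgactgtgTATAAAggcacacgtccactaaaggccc
Gch1: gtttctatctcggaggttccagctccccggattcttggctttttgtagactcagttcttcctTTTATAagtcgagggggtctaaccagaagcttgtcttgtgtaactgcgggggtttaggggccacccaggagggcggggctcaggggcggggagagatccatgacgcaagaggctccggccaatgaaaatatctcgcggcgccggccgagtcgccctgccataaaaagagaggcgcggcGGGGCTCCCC
The Acod1 window held a TATA box that starts at -28 and no exact match to the kB consensus. Looser forms of the kB site were not searched, so such a site may still be present. The Gch1 window held a kB consensus that starts at -10, a TATA box on the opposite strand that starts at -188, and GC boxes (GGGCGG) that start at -118 and -105. None of these matches overlapped another. Also searched on both strands were an interferon response core (GAAA, then any 2 bases, then GAAA), the GAS element (TTCNNNGAA) and the AP-1 element (TGANTCA), and these letters were in neither window. Among 32851 promoters cut to the same 250 bases, the kB consensus was in 3.9%, TATAAA in 12.4%, GGGCGG in 32.7%, the interferon response core in 2.98%, TTCNNNGAA in 7.02% and TGANTCA in 6.75%. A promoter was matched for 3 of the 8 genes, and the third, Ass1, held a GC box that starts at -63 and no other of these motifs.

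All values are log2 RMA signals, that is, background-corrected, quantile-normalised and summarised probe intensities, on which a step of 1 is a doubling. Array medians lay between 4.08 and 4.13, brought close by the quantile normalisation, so they are no check of array quality. The number of arrays limits the precision. Correlations between arrays ran from 0.995 to 0.9974. In a principal component analysis 2 arrays lay far from the rest, Telmisartan+LPS replicate 1 (17.31 on component 3) and Telmisartan+LPS replicate 3 (20.18 on component 2), so values that rest on that group are also given without this pair. Of 11 measured microglia and macrophage markers, 10 lay above the median gene, with Cd68 at 12.23 and Csf1r at 10.48 in DMSO, whereas the homeostatic microglial marker P2ry12 was at 3.52 and Tmem119 at 4.81. Above the median gene also lay 2 of 3 endothelial, 1 of 4 astrocyte, 1 of 4 neuron, 1 of 4 fibroblast and 0 of 3 oligodendrocyte markers. The highest of these was at 5.04, averaged over the 12 arrays. No marker of any cell type passed the test in any comparison. The LPS label was borne out by Tnf, Il1b, Il6, Cxcl2 and Nfkbia, 5 of 5 of which rose, from 1.04 for Nfkbia to 4.23 for Cxcl2. The labels call the samples of a group independent but also speak of triplicate analysis, and no label ties an array to a culture of its own. The p-values therefore speak of array-to-array spread, which may be technical.

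LPS against DMSO shows how these genes stood after 1 h of LPS without the drug. Acod1 rose 2.43-fold, and in bulk RNA more expressing cells and more RNA per cell cannot be told apart. The other 7 did not pass the threshold, an adjusted p under 0.05 in limma with Benjamini-Hochberg adjustment over all 22180 genes, although Nos2 and Arg1 were higher and Asl was lower on every LPS array than on any DMSO array. The share of all genes called was 0.428% in either direction, 0.379% higher and 0.0496% lower. Groups did not overlap for 4 of the 8 genes, against 15.7% of all genes, with 3 of the 8 higher (6.28% of all genes) and 1 of the 8 lower (9.42% of all genes). Because the 8 were chosen with earlier results of these data known, these shares do not test the group. The median difference of the 8 genes was 0.017 and that of all genes -0.007, with 4 of the 8 differences above 0 and 4 below.

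**Figure D1:**
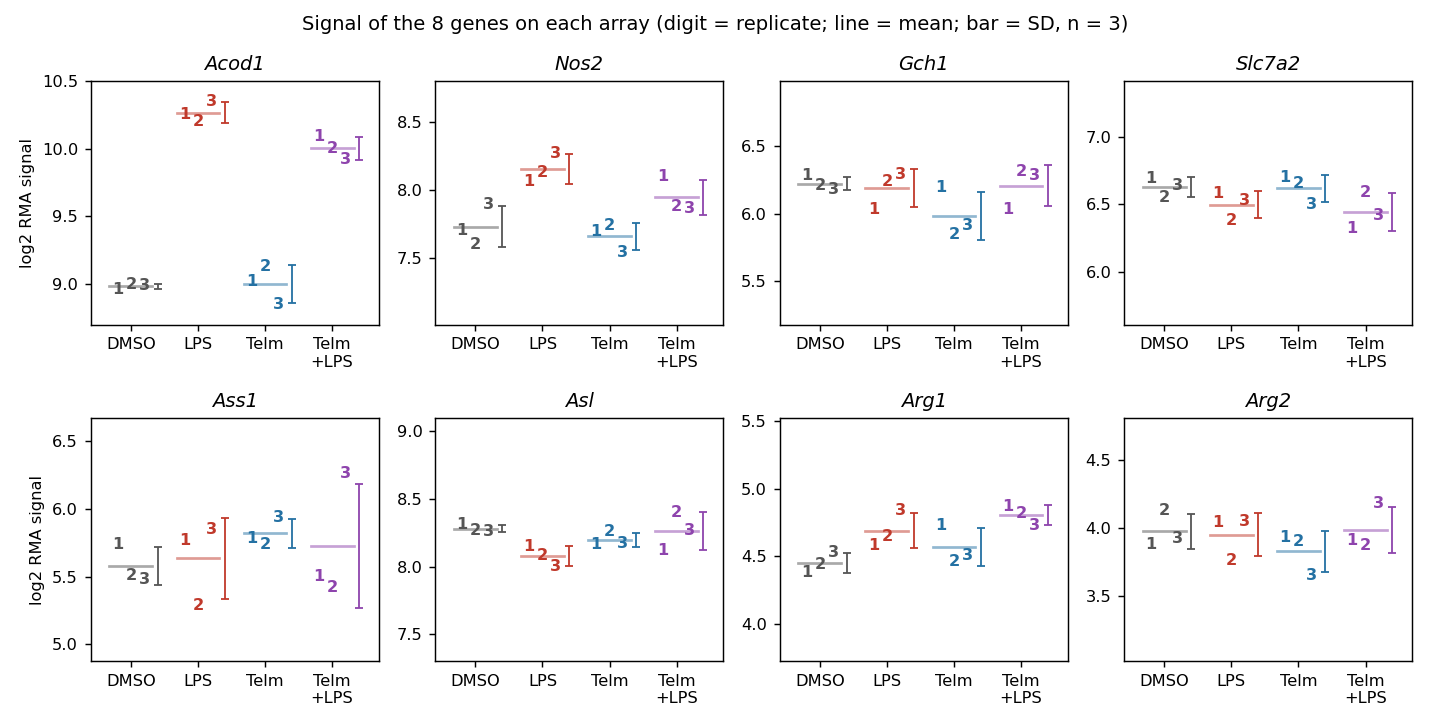
Log2 RMA signal (y axis, with its own range in each panel) of the 8 genes on each of the 12 arrays by treatment (x axis). Digits are replicates, lines are group means and bars are SDs of 3 arrays. Acod1 splits the arrays with LPS from those without, Nos2 does so within each drug state, and Ass1 shows the widest spread within Telmisartan+LPS.

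Acod1 was at 8.96, 9.0 and 8.99 in the DMSO replicates and at 10.25, 10.20 and 10.35 in the LPS replicates. With telmisartan it was at 9.02, 9.13 and 8.85 without LPS and at 10.09, 10.0 and 9.92 with LPS. The lowest array with LPS therefore lay well above the highest without, in both drug states. The LPS minus DMSO difference was 1.28 (SE 0.08), a 2.43-fold rise with a 95% interval of 2.16 to 2.75, with a limma adjusted p of 1.22e-06, and it was the gene with the 11th smallest p among all genes. The LPS difference with the drug present was 1.00 (SE 0.08, interval 0.83 to 1.18, limma adjusted p = 2.63e-05), a 2-fold rise. Without Telmisartan+LPS replicates 1 and 3, which leaves 1 array in that group whose spread is assumed to be that of the others, it was again 1.00 (SE 0.11, limma adjusted p = 0.00536).

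Nos2 was at 7.70, 7.60 and 7.89 in DMSO and at 8.06, 8.13 and 8.27 in LPS. In the drug groups it was at 7.69, 7.74 and 7.54 with Telmisartan alone and at 8.10, 7.88 and 7.86 with Telmisartan+LPS. Arrays with LPS were higher than arrays without in each drug state, but DMSO replicate 3 lay above 2 of the 3 Telmisartan+LPS arrays. The LPS minus DMSO difference of 0.42 (SE 0.10, interval 0.21 to 0.63), a 1.34-fold difference, missed the threshold (limma adjusted p = 0.12). It passed with the trend and robust options of limma (adjusted p = 0.0244), and over all 18 alternatives the adjusted p ran from 0.0244 to 0.376. With the drug present the difference was 0.29 (SE 0.10, interval 0.08 to 0.50, limma adjusted p = 0.238).

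Averaged over both drug states, which sets 6 arrays with LPS against 6 without, Nos2 rose by 0.36 (SE 0.07, interval 0.21 to 0.50, limma adjusted p = 0.0312). That average called 0.667% of all genes (0.537% higher, 0.131% lower) and 2 of the 8, Acod1 at 1.14 (SE 0.06, limma adjusted p = 7.38e-08) and Nos2. The Nos2 call was kept in 5 of 12 fits that each left out 1 array. It was lost without DMSO replicate 1 or 2, LPS replicate 2 or 3, or Telmisartan replicate 1 or 3. It was also lost without Telmisartan+LPS replicate 1. In the fits that lost the call, the limma adjusted p reached 0.0922. Each alternative that kept all arrays kept the Nos2 call. Over all 17 alternatives 10 passed, with a limma adjusted p from 0.00377 to 0.0922. Without Telmisartan+LPS replicates 1 and 3 the average was 0.32 and the limma adjusted p 0.197.

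Of the genes that supply Nos2 with cofactor and substrate, none passed the threshold. Gch1 was at 6.28, 6.21 and 6.18 in DMSO and at 6.03, 6.24 and 6.29 in LPS, so the groups overlapped. The LPS minus DMSO difference of -0.04 (SE 0.11) had an interval of -0.26 to 0.19, which holds changes from a 0.83-fold to a 1.14-fold level (limma adjusted p = 0.946). Slc7a2, the cationic amino acid transporter, ranged from 6.55 to 6.69 in DMSO and from 6.38 to 6.58 in LPS, with overlap and a difference of -0.13 (SE 0.09, interval -0.32 to 0.06, limma adjusted p = 0.704). Over both drug states Slc7a2 was at -0.15 (SE 0.06), which missed the threshold too (limma adjusted p = 0.297).

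The citrulline recycling enzymes differed from each other in how tightly they were measured. Asl, which releases arginine and fumarate, was at 8.31, 8.27 and 8.26 in DMSO and at 8.15, 8.08 and 8.0 in LPS. All 3 LPS arrays were below all 3 DMSO arrays, and the difference of -0.20 (SE 0.08, interval -0.37 to -0.04) missed the threshold (limma adjusted p = 0.45). Ass1, which joins citrulline to aspartate, was at 5.74, 5.51 and 5.48 in DMSO and at 5.77, 5.29 and 5.85 in LPS. LPS replicate 2 was lower and the other LPS arrays higher than every DMSO array, so the difference of 0.06 had a wide interval of -0.36 to 0.48 (SE 0.19, limma adjusted p = 0.955).

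The arginases were dim, near the array medians. Arg1, the cytosolic enzyme, was at 4.38, 4.44 and 4.53 in DMSO and at 4.58, 4.65 and 4.84 in LPS, with no overlap. The difference was 0.24 (SE 0.09, interval 0.05 to 0.43, limma adjusted p = 0.442), and with telmisartan present it was 0.24 again (limma adjusted p = 0.278). Over both drug states Arg1 was at 0.24 (SE 0.06), which missed the threshold (limma adjusted p = 0.128). Arg2, the mitochondrial enzyme, ranged from 3.88 to 4.13 in DMSO and from 3.76 to 4.05 in LPS, with overlap and a difference of -0.03 (SE 0.11, interval -0.27 to 0.22, limma adjusted p = 0.967).

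**Figure D2:**
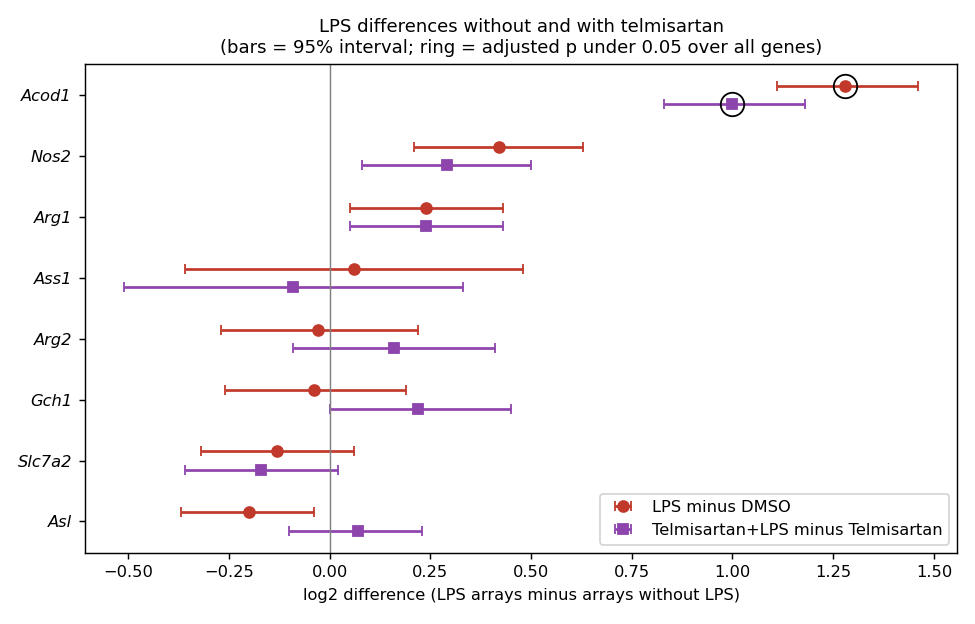
Log2 LPS differences (x axis) of the 8 genes (y axis) without telmisartan (circles) and with it (squares), with 95% intervals of the limma fit. Acod1 is ringed at 1.28 and 1.00 as past the threshold, Nos2 and Arg1 lie above 0 in both drug states without passing it, and the intervals of Ass1 are the widest.

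LPS in the presence of telmisartan was compared with telmisartan alone. Acod1 alone of the 8 genes was called, against 0.261% of all genes (0.248% higher, 0.0135% lower). Groups did not overlap for 2 of the 8, Acod1 and Nos2, both higher, against 17% of all genes (8.03% higher, 8.95% lower). Gch1 was at 6.19, 5.85 and 5.91 with Telmisartan and at 6.03, 6.31 and 6.28 with Telmisartan+LPS. The groups overlapped through Telmisartan replicate 1 and Telmisartan+LPS replicate 1, and the difference of 0.22 (SE 0.11) missed the threshold (limma adjusted p = 0.37). Slc7a2 was at -0.17 (SE 0.09, limma adjusted p = 0.403), Arg2 at 0.16, Asl at 0.07 and Ass1 at -0.09, none of them past it.

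Telmisartan alone was set against DMSO, a comparison that shares the DMSO arrays with LPS minus DMSO. None of the 8 genes passed the threshold in limma, where 0 of 22180 genes did (0%) with or without the trend and robust options. An unadjusted p under 0.05 was found for 1222 genes. If nothing differed, a share of 0.05 of the tested genes would be expected to have such a p, here and in the other comparisons. Groups did not overlap for 0 of the 8, against 11.4% of all genes (4.73% higher, 6.66% lower). Gch1 had the smallest unadjusted p of the 8, with a difference of -0.24 (SE 0.11, interval -0.47 to -0.01, limma adjusted p = 0.882). Telmisartan replicate 1, at 6.19, lay within the DMSO range, and the other 2 Telmisartan arrays lay below it. Ass1 was at 5.78, 5.74 and 5.94 with Telmisartan, a difference of 0.24 (SE 0.19, limma adjusted p = 0.957). The intervals were -0.16 to 0.19 for Acod1 at 0.02 and -0.28 to 0.14 for Nos2 at -0.07. Arg1 was at 0.12, Arg2 at -0.15, Asl at -0.08 and Slc7a2 at -0.01.

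Telmisartan+LPS was set against LPS to see what the drug changed in cells given LPS, and the LPS arrays are shared with LPS minus DMSO. Acod1 was lower on all 3 Telmisartan+LPS arrays than on any LPS array. Its difference was -0.26 (SE 0.08, interval -0.44 to -0.09), a 0.83-fold level, and missed the threshold (limma adjusted p = 0.365). Acod1 was the single gene of the 8 whose groups did not overlap, against 13% of all genes (6.74% higher, 6.23% lower). Nos2 differed by -0.21 (SE 0.10, interval -0.42 to 0.00, limma adjusted p = 0.511), with Telmisartan+LPS replicate 1 at 8.10 inside the LPS range and the other 2 arrays below it. Without replicates 1 and 3 of that group, Acod1 was at -0.27 (SE 0.11, limma adjusted p = 0.548) and Nos2 at -0.27 (SE 0.13, limma adjusted p = 0.595).

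Asl went the other way, at 8.12, 8.40 and 8.27 with Telmisartan+LPS, which put its mean of 8.263 next to the DMSO mean of 8.28. Telmisartan+LPS replicate 1 overlapped the LPS arrays, and the difference from LPS was 0.19 (SE 0.08, interval 0.02 to 0.35, limma adjusted p = 0.465). It was 0.118 without Telmisartan+LPS replicate 2, the highest array (limma adjusted p = 0.636), and 0.32 with that array alone in the group (SE 0.09, limma adjusted p = 0.404). Arg1 was at 4.87, 4.82 and 4.73 with Telmisartan+LPS, a difference of 0.12 (SE 0.09, limma adjusted p = 0.698). Ass1 was at 5.5, 5.42 and 6.26 in the same group, where replicate 3 was far above the other arrays. Its difference was 0.09 with all arrays and -0.18 without that array, neither past the threshold (limma adjusted p = 0.912 with all arrays). Gch1 was at 0.02 (interval -0.21 to 0.25), Arg2 at 0.04 and Slc7a2 at -0.05. In this comparison limma called 0 of the 8 and 0 of all genes (0%), and 2176 genes had an unadjusted p below 0.05. With the trend and robust options 14 genes were called, none of them among the 8.

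**Figure D3:**
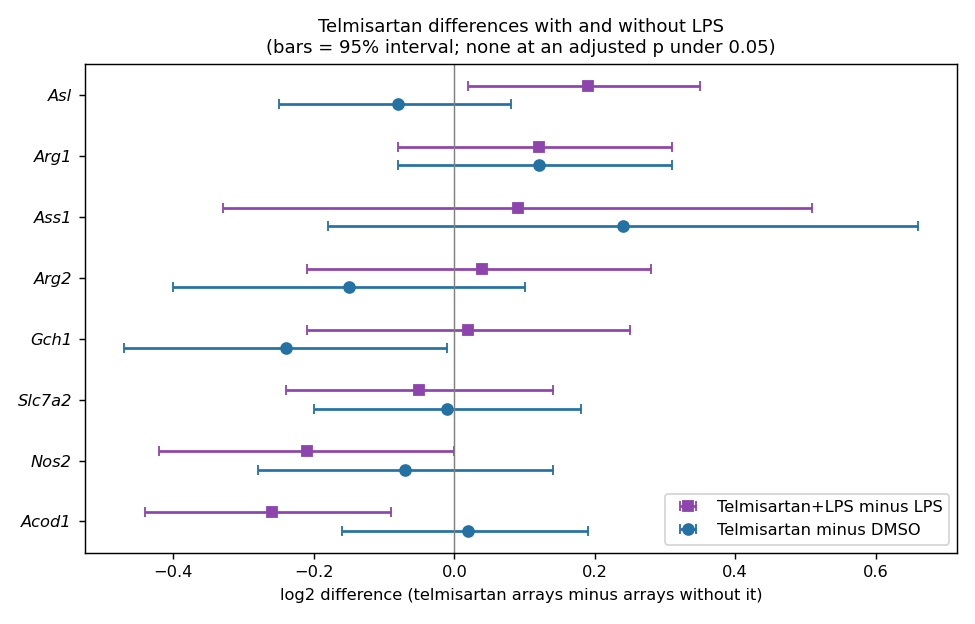
Log2 telmisartan differences (x axis) of the 8 genes (y axis) with LPS (squares) and without it (circles), with 95% intervals of the limma fit. Acod1 at -0.26 and Nos2 at -0.21 are lowest and Asl at 0.19 highest in cells given LPS, and no gene passed the threshold.

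Whether the LPS response itself differed with the drug was tested by the interaction, the LPS difference with telmisartan minus that without. It was -0.28 (SE 0.11, interval -0.53 to -0.03) for Acod1, -0.13 (SE 0.14) for Nos2, 0.27 (SE 0.11, interval 0.03 to 0.51) for Asl and 0.26 (SE 0.15) for Gch1. The limma adjusted p was 0.616 for Acod1, 0.818 for Nos2, 0.616 for Asl and 0.681 for Gch1. Arg1 had an interaction of 0.00 (SE 0.13), Arg2 of 0.19, Ass1 of -0.15 and Slc7a2 of -0.04. No gene of the 8 and none of all genes passed (0%) in limma, where 1725 genes had an unadjusted p below 0.05 and 1 gene was called with the trend and robust options. Averaged over cells with and without LPS, telmisartan gave 0 calls among the 8, with Nos2 at -0.14 and Acod1 at -0.12, against 0.00451% of all genes, which is 1 gene.

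By level, Acod1 was highest in LPS (10.267 ± 0.076, SD, n = 3), then in Telmisartan+LPS (10.003 ± 0.085), Telmisartan (9.0 ± 0.14) and DMSO (8.983 ± 0.021). LPS and Telmisartan+LPS did not overlap but their difference missed the threshold, the step from Telmisartan+LPS to Telmisartan was past it, and Telmisartan and DMSO overlapped. Nos2 had the same order in its upper groups, with LPS at 8.153 ± 0.11 (SD, n = 3), Telmisartan+LPS at 7.947 ± 0.13, DMSO at 7.73 ± 0.15 and Telmisartan at 7.657 ± 0.10. Each of its neighbours in that order overlapped. In Arg1 the order was Telmisartan+LPS at 4.807 ± 0.071 (SD, n = 3), LPS at 4.69 ± 0.13, Telmisartan at 4.567 ± 0.14 and DMSO at 4.45 ± 0.075, again with overlap between neighbours.

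Across the 12 arrays, Acod1 and Nos2 had a Pearson correlation of 0.89, Acod1 and Arg1 of 0.72, and Nos2 and Asl of -0.59. Gch1 correlated with Nos2 at 0.26. These are descriptions over arrays that share the LPS split and a single normalisation. The 5 genes whose values over the 12 arrays were most like those of Acod1 were Tnfaip3, which encodes the NF-kB inhibitor A20 (Pearson r = 0.994), the nuclear IkB gene Nfkbiz (0.993), the IkB alpha gene Nfkbia (0.993), the cytokine gene Il1a (0.989) and the kinase gene Pim1 (0.988). All 5 rose with LPS, by 2.68 for Tnfaip3, 1.39 for Nfkbiz, 1.04 for Nfkbia, 3.09 for Il1a and 1.16 for Pim1. That follows from the choice, since Acod1 itself split the arrays by LPS. The 5 most like Nos2 were the protease gene Plau (0.955), the prostaglandin synthase gene Ptgs2 (0.951), the lectin-like receptor gene Olr1 (0.947), the TNF receptor gene Tnfrsf1b (0.94) and the chemokine gene Ccl7 (0.937). Of these Ptgs2 rose by 1.24, Olr1 by 0.88, Ccl7 by 0.71 and Tnfrsf1b by 0.48 with LPS, and Plau, at 0.30, did not pass the threshold (limma adjusted p = 0.286). In the Nos2 set DMSO replicate 3 and Telmisartan+LPS replicate 1 were the high arrays of their groups for Nos2, at 7.89 and 8.10. The same held for Ptgs2, at 8.98 and 9.68, and for Plau, Tnfrsf1b and Ccl7. For Olr1, DMSO replicate 1, at 3.58, lay above DMSO replicate 3, at 3.5. The set was picked by correlation over these same arrays, so shared high arrays are not a separate result.

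**Figure D4:**
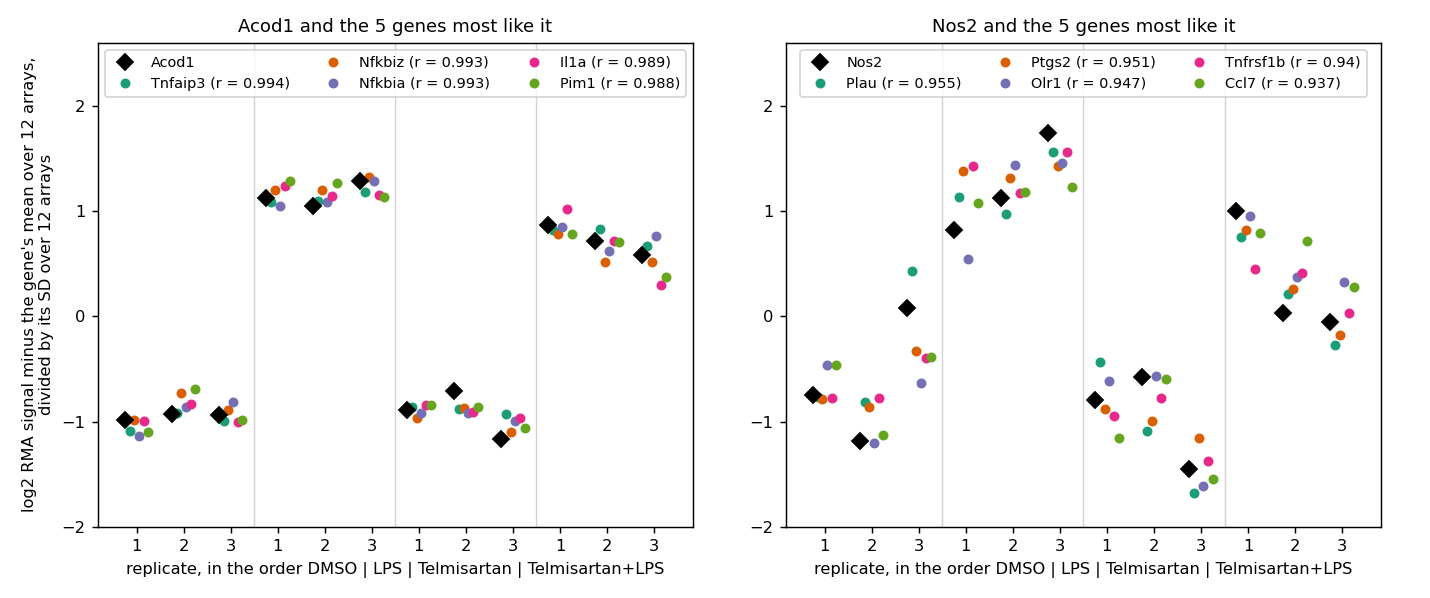
Values of Acod1 (left) and Nos2 (right), as diamonds, and of the 5 genes most like each, as circles, on the 12 arrays. The y axis is the log2 signal minus the gene's mean over 12 arrays, divided by its SD, and the x axis lists the replicates by group. Acod1 and its 5 genes form a low and a high set of arrays, whereas Nos2 and its 5 genes spread more within groups.

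The rest of the pathway was read from 7 lists holding 76 genes, of which 68 were measured. These lists too were chosen with earlier results of these data known. With LPS 1 of the 68 rose, none fell and 67 did not pass the threshold, against 0.379% of all genes called higher. The gene was Irf1, an interferon regulatory factor known to act at Nos2 in mouse macrophages. Irf1 was at 5.09, 5.39 and 5.42 in DMSO and at 5.97, 6.23 and 6.28 in LPS, all LPS arrays above all DMSO arrays. The difference was 0.86 (SE 0.11, limma adjusted p = 0.00133), and with telmisartan it was 0.81 (SE 0.11, limma adjusted p = 0.00327), the single call of the 68 there too. Without Telmisartan+LPS replicates 1 and 3 the Irf1 difference was 0.89 (SE 0.15), no smaller, but missed the threshold (limma adjusted p = 0.0859), and none of the 68 passed. Nfe2l2, which encodes the antioxidant factor Nrf2, rose by 0.23 (SE 0.05, limma adjusted p = 0.0458) on average over both drug states, with 0.28 (limma adjusted p = 0.141) for LPS minus DMSO. The average called 2 of the 68, Irf1 and Nfe2l2, against 0.667% of all genes (0.537% higher). Irf1 passed in each of the 12 fits that left out 1 array. Nfe2l2 passed in none of those 12, at 0.21 to 0.25 with a limma adjusted p of 0.0519 to 0.125. It was at 0.20 without Telmisartan+LPS replicates 1 and 3. With all arrays kept, the Nfe2l2 average passed under each alternative. Its limma adjusted p then ran from 0.00139 with the trend and robust options to 0.0455 with averaged features. For LPS minus DMSO, Nfe2l2 passed only with the trend and robust options (limma adjusted p = 0.00845). Rel, the NF-kB subunit c-Rel, was at 0.42 (SE 0.09, limma adjusted p = 0.0705) with LPS. The number of the 68 called for LPS minus DMSO was 2 with array weights, 2 with dim genes left out, 2 without Telmisartan+LPS replicate 1, replicate 3 or both, and 3 with the trend and robust options. All-gene calls rose too, from 95 to 116 with array weights, 120 of 12320 with dim genes left out and 128 with the trend and robust options.

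Of the metabolic lists, none had a member past the threshold in any comparison. The 6 measured tetrahydrobiopterin genes had a median of -0.102 with LPS, and Spr, the last enzyme of the synthesis, was at -0.18 (limma adjusted p = 0.532). Gchfr, the feedback regulator of Gch1, was at 5.33, 5.47 and 5.24 in LPS and at 5.77, 5.66 and 5.56 in Telmisartan+LPS, with no overlap, a difference of 0.32 (SE 0.08) and a limma adjusted p of 0.304. The 8 arginine transport genes had a median of -0.075 with LPS, with Slc7a7, a light chain of the y+L system, at -0.25 (limma adjusted p = 0.609). In the same list the mitochondrial carrier gene Slc25a29 was at 0.31 for Telmisartan+LPS minus LPS (limma adjusted p = 0.371), and the lysosomal arginine sensor gene Slc38a9 was at -0.25 for Telmisartan+LPS minus Telmisartan (limma adjusted p = 0.222) and at 0.15 for Telmisartan minus DMSO (limma adjusted p = 0.935).

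Among 11 genes of nitric oxide synthesis, inhibition and sensing, the median was 0.023 with LPS, and Prmt1, which methylates protein arginines, was at -0.22 (limma adjusted p = 0.422). The neuronal synthase gene Nos1 was at -0.28 for Telmisartan+LPS minus LPS (limma adjusted p = 0.454). Of 8 genes of the urea cycle and other arginine use, with a median of -0.027, Aldh4a1, a proline catabolism enzyme, was at -0.28 with LPS (limma adjusted p = 0.285) and at 0.22 for Telmisartan+LPS minus LPS (limma adjusted p = 0.398). Otc, a mitochondrial urea cycle enzyme, was at 0.16 for Telmisartan+LPS minus Telmisartan (limma adjusted p = 0.38). The 9 ornithine, polyamine and proline genes had a median of -0.083 with LPS, and Oaz1, the antizyme that inhibits ornithine decarboxylase, was at -0.24 (limma adjusted p = 0.607). Its paralogue Oaz2 was at -0.13 with telmisartan alone, and the antizyme inhibitor gene Azin1 was at -0.19 for Telmisartan+LPS minus Telmisartan, neither past the threshold. The 16 genes of itaconate and neighbouring citric acid cycle steps had a median of -0.07 with LPS, with 12 below 0, 2 above and 2 at 0. Suclg1, a succinyl-CoA ligase subunit, was at -0.19 (limma adjusted p = 0.43) with LPS, the cytosolic aconitase gene Aco1 was at -0.15 for Telmisartan+LPS minus LPS, and the isocitrate dehydrogenase gene Idh3a was at -0.21 for Telmisartan+LPS minus Telmisartan (limma adjusted p = 0.249). Of the transcription factors, Rel was at -0.31 for Telmisartan+LPS minus LPS (limma adjusted p = 0.347), and Stat6 was at -0.14 for Telmisartan minus DMSO (limma adjusted p = 0.935).

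**Figure D5:**
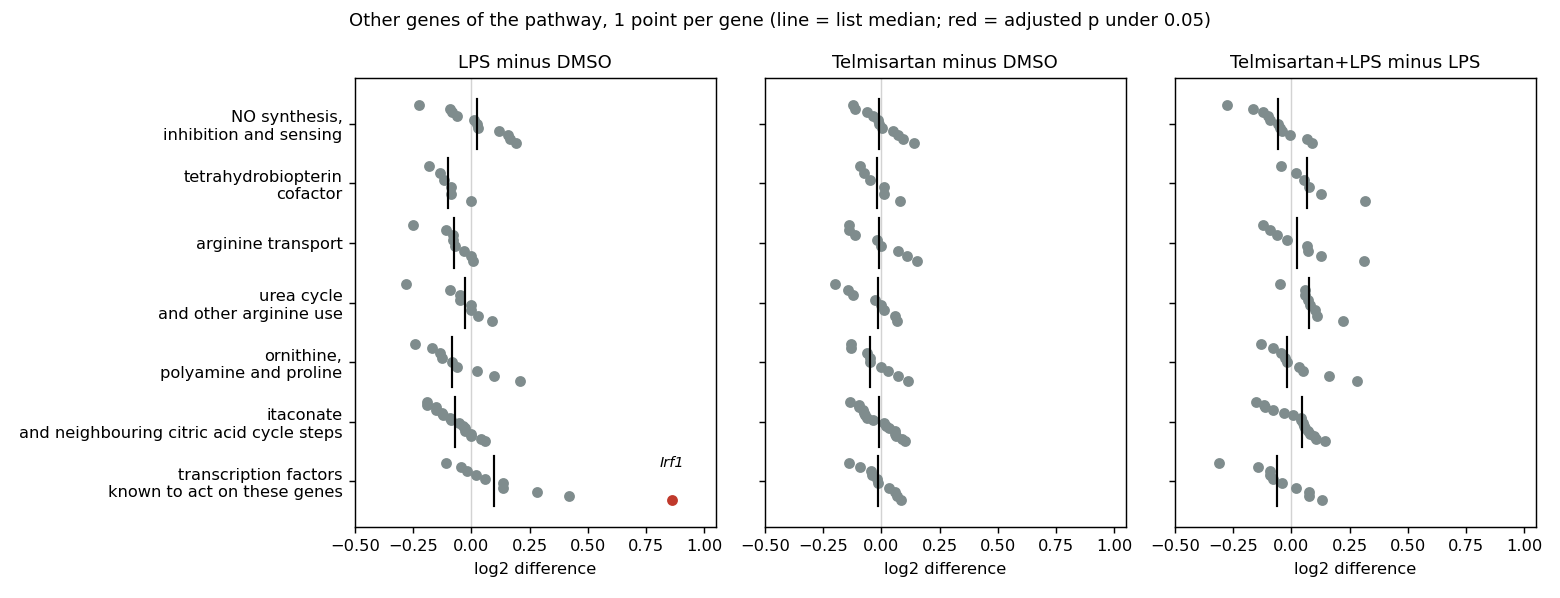
Log2 differences (x axis) of the measured genes of the 7 pathway lists (y axis), 1 point per gene, in 3 comparisons, with list medians as lines. Irf1 at 0.86 is the single gene past the threshold, and the remaining points lie between -0.31 and 0.42.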

How the data were processed

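BV2 cells were profiled on 12 second-generation Affymetrix mouse gene arrays. Per the file headers, the authors made the deposited log2 signals in Affymetrix Expression Console (engine 1.4.1.46) by RMA, with background correction, quantile normalization over all 12 arrays and median polish. Quantile normalization would hide a shift shared by most genes. The headers give the MoGene-2_0-st design, whereas the labelling protocol names its predecessor. The summary table (2 decimals) was used, and the series matrix (5 decimals), which differed from it by at most 0.005, was an alternative, with 0 columns of other samples. Genome build and detection calls are not given in the sources used here.

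Of 41345 features, 23521 had 1 gene symbol, 1820 several and 16004 none in the platform annotation. Symbols were updated through Entrez identifiers for 23328 and kept for 193. The feature with the highest mean stood for each of 22180 genes. Listed genes with no such feature are not analysed here.

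A linear model with 4 group means was fitted in limma 3.58.1 (R 4.3.3), with 8 residual and 4.99 prior degrees of freedom, and 7 contrasts were tested. Calls needed an adjusted p (Benjamini-Hochberg, all genes) under 0.05. The fit was also run on simulated data with independent noise around each gene's mean. These data held no differences shared by the genes of an array, and the outcome is not used here. Alternatives were the series matrix, trend and robust options, array weights, leaving out dim genes (mean under 4.09), averaging features, fitting only the groups compared, and leaving out each array. A fit without Telmisartan+LPS replicates 1 and 3 was chosen after seeing the data. The members and lists were chosen with earlier results of these data known. Text names all 8 members, called list members, the list member with the largest absolute difference in each pairwise comparison, the 5 genes most correlated with each called member, and 5 LPS check genes. Groups of arrays followed the treatment label.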

Additional observations from a re-analysis of the deposited data

Results flagged for a closer look

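Asl was singled out because its telmisartan differences ran in opposite directions with and without LPS. All 3 Telmisartan arrays (8.16, 8.26 and 8.17) lay below the DMSO mean of 8.28, and all 3 Telmisartan+LPS arrays (8.12, 8.40 and 8.27) lay above the LPS mean of 8.077. The arrays themselves overlapped, since Telmisartan replicate 2 equalled DMSO replicate 3 at 8.26 and Telmisartan+LPS replicate 1 lay inside the LPS range. Telmisartan minus DMSO was -0.08 (interval -0.25 to 0.08) and Telmisartan+LPS minus LPS 0.19 (interval 0.02 to 0.35). The interaction was 0.27 (SE 0.11), the limma adjusted p was 0.616, and it was 0.202 without Telmisartan+LPS replicate 2 and 0.41 without replicates 1 and 3 of that group (limma adjusted p = 0.419). The difference did not pass the test.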

How the results depend on the processing

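Acod1 kept its LPS rise under each of 18 alternatives for LPS minus DMSO (1.24 to 1.32) and for Telmisartan+LPS minus Telmisartan (0.93 to 1.07). Of 56 member values, Nos2 was the single gene whose call changed. The number of the 8 called was 2 for LPS minus DMSO with trend and robust options, where 128 of all genes were called (0.577%) against 95. It was 1 to 2 for the average LPS effect when 1 array was left out, and 1 without Telmisartan+LPS replicates 1 and 3. Of the 68 list genes, LPS minus DMSO called 3 with trend and robust options, 2 with array weights, 2 with dim genes left out, 2 without that pair of arrays and 1 to 2 without 1 array. Telmisartan+LPS minus Telmisartan called 0 of the 68 without the pair, and the average LPS effect called 1 without the pair and 1 to 2 without 1 array.

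Over all genes, trend and robust options moved Telmisartan+LPS minus LPS from 0 to 14 calls, Telmisartan+LPS minus Telmisartan from 58 to 164, the interaction from 0 to 1, the average LPS effect from 148 to 281 and the average telmisartan effect from 1 to 12. With dim genes left out the counts were 144, 272 and 9 for Telmisartan+LPS minus Telmisartan and the averages of LPS and telmisartan, where 12320 genes were tested. Only the groups compared gave 35 for Telmisartan+LPS minus Telmisartan. Without the pair of arrays the counts were 25, 85 and 0 for that comparison and the averages. When 1 array was left out, the drug comparison within LPS ran from 0 to 5 calls, Telmisartan+LPS minus Telmisartan from 31 (without Telmisartan replicate 3) to 66, with 0 to 3 for the interaction, 97 to 158 for the average LPS effect and 0 to 1 for the average telmisartan effect. The causes were not tested.

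Sign changes touched only values that missed the threshold. With array weights Arg2 was at 0.00046 for LPS minus DMSO. Without the pair of arrays, Telmisartan+LPS minus LPS was -0.08 for Arg2, -0.22 for Ass1 and 0.093 for Slc7a2, whose interaction was 0.10 and whose average telmisartan effect was 0.042. When 1 array was left out, LPS minus DMSO ran from -0.077 to 0.068 for Arg2, -0.047 to 0.23 for Ass1 and -0.088 to 0.042 for Gch1. Telmisartan minus DMSO ran from -0.14 to 0.007 for Nos2, -0.048 to 0.092 for Acod1 and -0.052 to 0.048 for Slc7a2. Telmisartan+LPS minus LPS ran from -0.06 to 0.09 for Arg2, -0.18 to 0.24 for Ass1, -0.13 to 0.008 for Slc7a2 and -0.058 to 0.11 for Gch1. Telmisartan+LPS minus Telmisartan ran from -0.36 to 0.06 for Ass1 and from -0.0017 to 0.14 for Asl, the interaction from -0.12 to 0.018 for Slc7a2, and the average LPS effect from -0.15 to 0.07 for Ass1. No paired analysis was run, because no label says which arrays of different groups belong together. The running numbers of the titles cycle through the 4 groups, but that order alone was not used to pair arrays. Arg2 has no value with dim genes left out, and fits of only the groups compared apply to the pairwise comparisons. Precision is limited by 3 arrays a group, and no detection call was used for the dim arginases.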
